A study of Brachypodium distachyon and Sorghum bicolor and Panicum virgatum with 44 samples.

Results

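Cellulose synthase A (CESA) genes encode the catalytic subunits of the plasma membrane complexes that make the cellulose microfibrils of plant cell walls. Work in Arabidopsis and in grasses divides them into a primary-wall set, CESA1, CESA3 and CESA6, used in growing cells, and a secondary-wall set, CESA4, CESA7 and CESA8, used when vessels and fibres thicken their walls after growth has stopped. The subunits of a set work together in a complex, and the secondary-wall subunits are known for being expressed together in vascular and supporting tissue. The 6 members described here were chosen by gene ID from the 34310 genes of the Brachypodium distachyon RNA-seq files, and the rule itself uses no measured value. The primary-wall members were CESA1 (Bradi2g34240.v3.1), CESA3 (Bradi1g54250.v3.1) and CESA6 (Bradi1g53207.v3.1). The secondary-wall members were CESA4 (Bradi3g28350.v3.1), CESA7 (Bradi4g30540.v3.1) and CESA8 (Bradi2g49912.v3.1). The files give gene IDs without names or genome positions, so the CESA numbers and the division into walls come from outside the files and positions were not used here.

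RNA-seq was performed on above ground tissue of Bd21, an inbred Brachypodium line, with 2 biological replicates (Bio 1 and Bio 2) in each of 5 groups. Control plants were grown at 20 °C and received no stress. On day 21 the other plants were exposed for 12 h to drought (taken out of the soil, with the roots dried), cold (4 °C), submergence (wholly under tap water) or heat (40 °C). Whole shoots mix elongating leaves with vascular and supporting tissue, and fewer cells of a type and less RNA per cell cannot be told apart in such samples. The tissue label was not checked against marker genes, since the IDs could not be matched to gene names.

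Total expected counts, which are the RSEM estimates of reads per gene, ranged from 9885357 to 17978729 per library. All 6 members passed the filter on low counts, together with 23494 genes in all. Their expected counts ranged from 221 (CESA4, drought Bio 1) to 11803 (CESA3, heat Bio 2). Counts of CESA6 were not whole in 9 of 10 libraries and those of CESA3 in 1, which shows that some of their reads were shared with other genes and divided by RSEM; the counts of the other 4 members were whole in every library. Levels are given below as TPM, the RSEM abundance unit, which is scaled to a fixed total per library and divided by transcript length and so allows different genes to be set side by side. Fold changes and p-values come from edgeR's quasi-likelihood test on rounded expected counts with TMM scaling, adjusted by Benjamini-Hochberg over all 23494 genes, and a member is called where the adjusted p is under 0.05. TPM and TMM scale the libraries differently, so a ratio of TPM values need not equal the fold change printed beside it.

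In control plants the primary-wall pair CESA1 and CESA3 were the most abundant members. CESA1 was at 279.9 ± 2.91 TPM (SD, n = 2) and CESA3 at 284.3 ± 5.15 TPM. CESA6, the third primary-wall subunit, was lower at 113.8 ± 1.46 TPM. The secondary-wall members were at levels near that of CESA6, with 115.9 ± 16.1 TPM for CESA4, 119.5 ± 16.6 TPM for CESA7 and 140.5 ± 16.6 TPM for CESA8. The control libraries differed more in the secondary-wall genes than in the primary-wall genes, and Bio 2 was the higher library for each of CESA4, CESA7 and CESA8. Over all 10 libraries the members lay between the 60.1 and 98.7 percentiles of detected genes by TPM, the lowest being CESA4 in drought Bio 1 and the highest CESA3 in heat Bio 1.

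**Figure D1:**
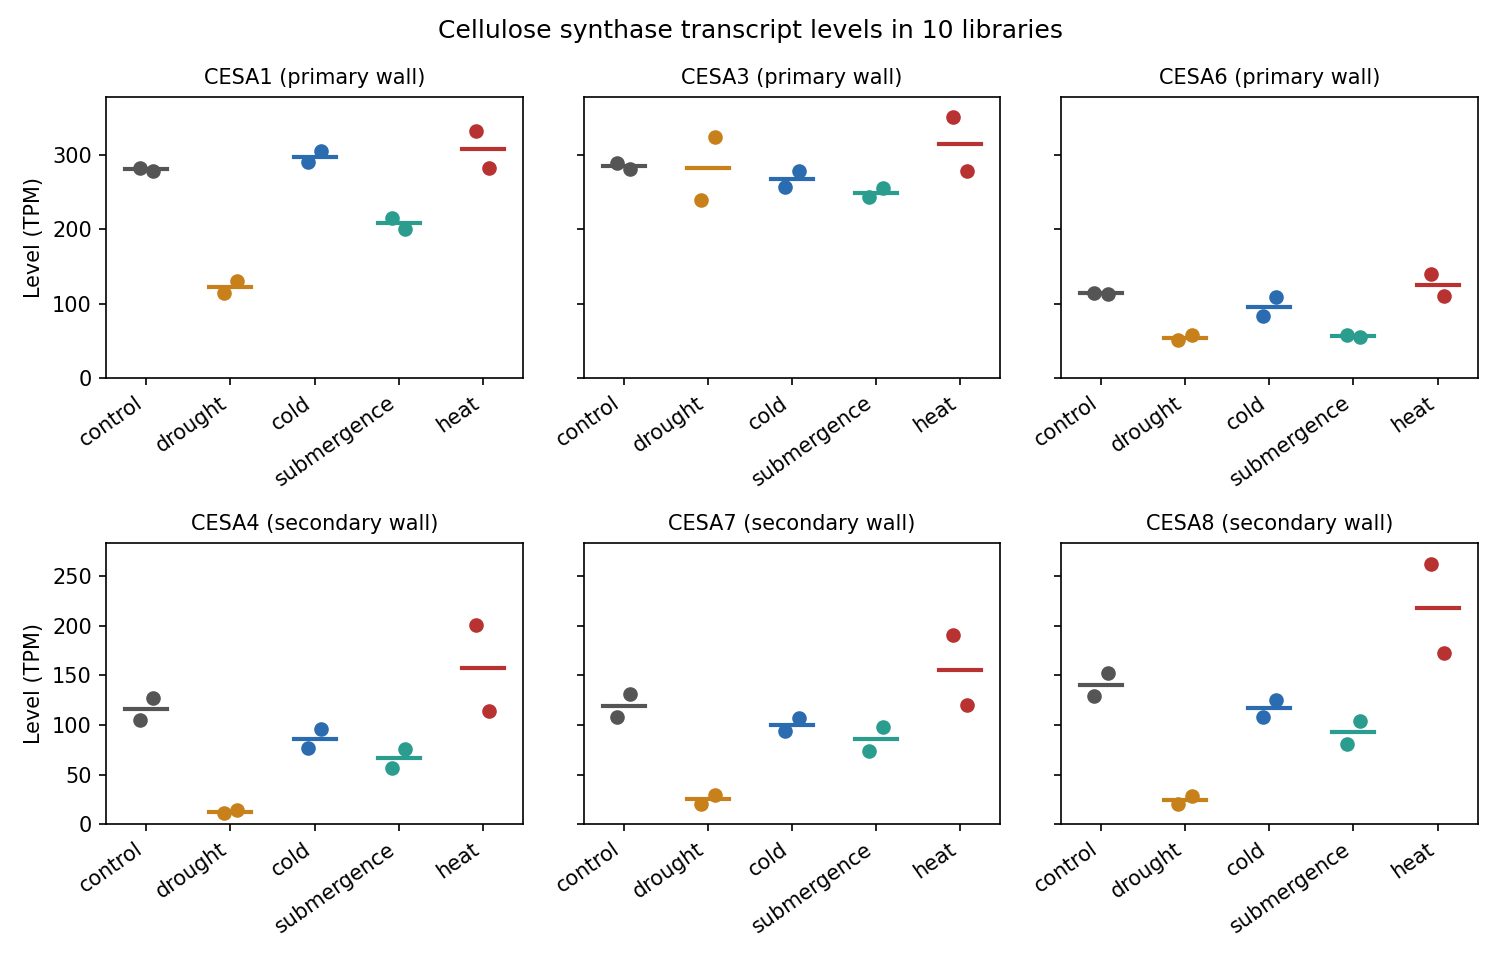
TPM (linear axis from 0) of each member in the 5 groups. Points are the 2 libraries of a group, Bio 1 on the left, and bars their mean; the 3 secondary-wall genes in the lower row are at 11.2 to 30.0 TPM in drought and at 57.2 TPM or above in every other library.

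Drought lowered all 3 secondary-wall genes and 2 of the 3 primary-wall genes. CESA4 was 7.84-fold lower, CESA8 was 4.84-fold lower and CESA7 4.02-fold lower, whereas CESA1 was 1.96-fold and CESA6 1.80-fold lower. CESA3 was the exception, with no call. In all, 5 of 6 members were called lower and 0 higher, in a comparison in which 32.8% of all tested genes were called lower.

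CESA4, a subunit required for secondary-wall cellulose, was at 105 and 127 TPM in control Bio 1 and Bio 2 and at 11.2 and 14.2 TPM in drought. Its log2 fold change was -2.97 (SE 0.28, 95% interval -3.58 to -2.36, adjusted p = 1.26e-05). Both drought libraries were far below both controls. CESA7 was at 108 and 131 TPM in control and 20.9 and 30.0 TPM in drought, a log2 fold change of -2.01 (SE 0.26, adjusted p = 9.04e-05). CESA8 was at 129 and 152 TPM in control and 20.9 and 28.9 TPM in drought, a log2 fold change of -2.27 (SE 0.24, adjusted p = 2.83e-05). For all 3 of these genes drought was the lowest of the 5 conditions, and the next lowest, submergence, differed from it by the test between stresses below.

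Among the primary-wall genes, CESA1 went from 282 and 278 TPM in control to 115 and 130 TPM in drought, a log2 fold change of -0.97 (SE 0.17, adjusted p = 0.000592). CESA6 went from 115 and 113 TPM to 50.6 and 58.0 TPM, a log2 fold change of -0.85 (SE 0.18, adjusted p = 0.00216). Neither gene overlapped between the groups, but with 2 libraries in a group this is common. In cold against control 69.9% of all tested genes did not overlap in TPM, and the share in drought was not computed. CESA3 was at 288 and 281 TPM in control and at 239 and 323 TPM in drought, so that the drought libraries lay on either side of the controls. Its log2 fold change was 0.21 (95% interval -0.22 to 0.64, adjusted p = 0.359), and its sign turned to -0.05 without drought Bio 2, to -0.05 under upper quartile scaling and to -0.08 under library size only. The median log2 fold change was -0.85 over the primary-wall genes and -2.27 over the secondary-wall genes, beside -0.07 over all tested genes. The 5 calls were kept under all 11 alternative settings tried for each gene.

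Submergence lowered the members of both walls by more similar amounts. CESA6 was 2.37-fold lower, the largest change of the 6, followed by CESA4 (2.07-fold), CESA8 (1.80-fold), CESA7 (1.66-fold) and CESA1 (1.59-fold). Again 5 of 6 members were called lower and 0 higher, where 16.6% of all tested genes were called lower, and again CESA3 was not called.

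CESA6 was at 58.4 and 55.0 TPM under submergence against 115 and 113 TPM in control, with a log2 fold change of -1.24 (SE 0.18, adjusted p = 0.00124). CESA1 was at 215 and 200 TPM, a log2 fold change of -0.67 (SE 0.17, adjusted p = 0.0134). CESA3 was at 242 and 256 TPM, a log2 fold change of -0.43 (95% interval -0.86 to 0.00, adjusted p = 0.118). All 3 primary-wall genes were below both controls in both libraries, as were 24.4% of all tested genes in TPM, and CESA3 was not called. CESA4 was at 57.2 and 75.7 TPM, a log2 fold change of -1.05 (SE 0.25, adjusted p = 0.0123). CESA8 was at 81.2 and 104 TPM, a log2 fold change of -0.85 (SE 0.23, adjusted p = 0.0194). CESA7 was at 73.4 and 97.5 TPM, a log2 fold change of -0.73 (SE 0.25, adjusted p = 0.0461). These secondary-wall genes did not overlap with control either, and submergence Bio 1 was the lower library in each.

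The median log2 fold change under submergence was -0.67 for the primary-wall and -0.85 for the secondary-wall genes, beside 0.00 over all tested genes. The call of CESA6 held under all 11 alternatives, but fewer members passed the threshold with any library of either group left out. The share of all tested genes called in those fits is not given here. A loss particular to these members therefore cannot be told apart from a general loss of calls. The direction was kept in each of these fits, with log2 fold changes of -0.78 to -0.57 for CESA1, -1.21 to -0.88 for CESA4, -0.89 to -0.56 for CESA7 and -0.98 to -0.70 for CESA8. CESA7, the call nearest to the threshold, was kept in 5 of 11 alternatives.

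Cold and heat gave no call for any member. After cold, edgeR called 0 of 6 members at an adjusted p under 0.05, and 0 had an unadjusted p under 0.05; DESeq2 called 0. Of all tested genes, 21.8% were called in either direction. CESA1 was at 290 and 304 TPM, above both controls, with a log2 fold change of 0.35 (95% interval -0.02 to 0.72, adjusted p = 0.163). The other primary-wall genes were at 257 and 278 TPM (CESA3) and at 82.9 and 109 TPM (CESA6), with log2 fold changes of 0.18 and 0.02. The secondary-wall genes were at 76.5 and 95.8 TPM (CESA4), 93.6 and 107 TPM (CESA7) and 108 and 125 TPM (CESA8), with log2 fold changes of -0.17, 0.01 and -0.01. On the TPM scale both cold libraries were thus below both controls for 5 members and above them for 1, whereas on the TMM scale only 2 members did not overlap. Groups of 2 libraries often do not overlap: 69.9% of all tested genes did not in TPM, and 65.0% did not with TMM scaling. The sign of the small differences turned with the scaling for CESA3, CESA6 and CESA7 and was kept for CESA1, CESA4 and CESA8: without TMM factors (library size only) the median over all tested genes shifted, on the log2 scale, by -0.28 after cold, -0.28 after drought, 0.20 after submergence and 0.16 after heat.

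After heat, edgeR likewise called 0 of 6 members, 0 had an unadjusted p under 0.05 and DESeq2 called 0, where 16.9% of all tested genes were called in either direction. The primary-wall genes had log2 fold changes of -0.02 (CESA1), -0.01 (CESA3) and -0.02 (CESA6), from levels of 332 and 282 TPM, 350 and 278 TPM, and 140 and 111 TPM. CESA8 was at 262 and 172 TPM, both above the controls, and its log2 fold change of 0.46 (95% interval -0.05 to 0.97, adjusted p = 0.187) was the largest. CESA4 was at 200 and 114 TPM and CESA7 at 191 and 120 TPM, with log2 fold changes of 0.27 and 0.21. For both of these genes heat Bio 1 was above both controls and heat Bio 2 between them. Without heat Bio 1 the log2 fold changes turned to -0.12 for CESA4 and -0.09 for CESA7. The intervals leave room for changes of up to 0.97 on the log2 scale after heat and 0.73 after cold (the lower limit of CESA4 is -0.73), so a missing call does not show that a level stayed the same.

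**Figure D2:**
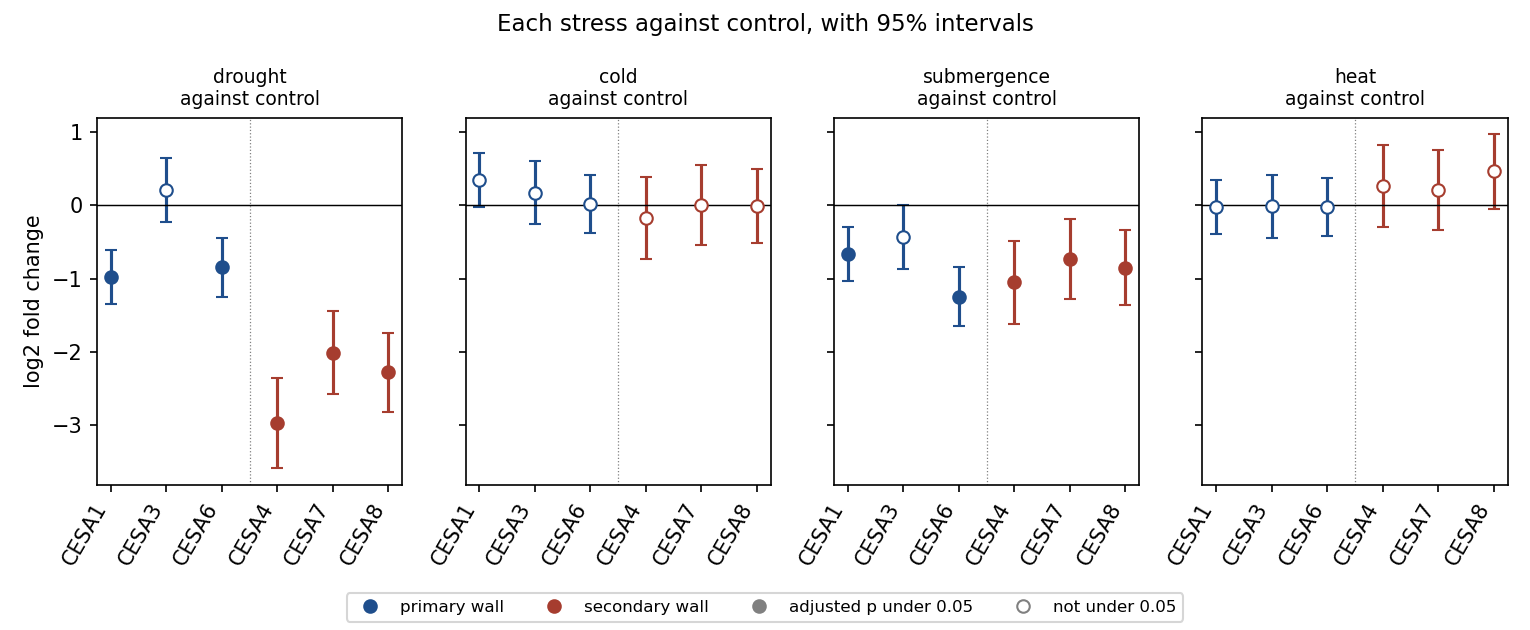
Log2 fold change of each member in each stress against control, with 95% intervals from the edgeR fit; filled points have an adjusted p under 0.05. In drought the secondary-wall genes (red) lie between -2.97 and -2.01 and the primary-wall genes (blue) between -0.97 and 0.21, while in cold and heat every interval includes 0.

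Since the 4 comparisons share the same control libraries, the stresses were also tested against each other. Drought against submergence called members in both directions. CESA4, CESA7 and CESA8 were lower in drought, with log2 fold changes of -1.92 (adjusted p = 0.000225), -1.28 (adjusted p = 0.00178) and -1.42 (adjusted p = 0.000643), where 29.5% of all tested genes were called lower. CESA3 was higher in drought, at 0.64 (adjusted p = 0.0171), where 29.0% were called higher. In TPM its drought libraries (239 and 323) overlapped with the submergence libraries (242 and 256), and under library size only its log2 fold change was 0.15. CESA1 had a log2 fold change of -0.30 (95% interval -0.67 to 0.06, adjusted p = 0.137) and CESA6 of 0.40 (95% interval -0.001 to 0.79, adjusted p = 0.0796), and neither was called. CESA1 was called lower in drought under upper quartile scaling (-0.54, adjusted p = 0.0139) and library size only (-0.79, adjusted p = 0.00146), and CESA6 was called higher under RLE scaling (0.47, adjusted p = 0.0435) and with DESeq2 (0.47, adjusted p = 0.0325). The secondary-wall calls held under all 11 alternatives. The CESA3 call was lost without drought Bio 2 (log2 fold change 0.38, adjusted p = 0.157), without submergence Bio 2 (0.62, adjusted p = 0.0531), under upper quartile scaling and under library size only.

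Against cold and heat, drought again gave the lower level for every member but CESA3. Drought against cold called 5 of 6 members lower (28.9% of all tested genes), with log2 fold changes of -2.80 for CESA4, -2.02 for CESA7, -2.27 for CESA8, -1.32 for CESA1 and -0.86 for CESA6. Drought against heat also called 5 lower (35.1% of all tested genes), at -3.24, -2.22, -2.74, -0.95 and -0.83 in the same order of genes. CESA3 differed by 0.03 (95% interval -0.40 to 0.47, adjusted p = 0.893) from cold and by 0.22 (95% interval -0.21 to 0.66, adjusted p = 0.325) from heat. CESA4 in heat against drought was the widest gap of any member between stresses, a 9.44-fold difference with an adjusted p of 8.04e-06.

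Submergence was lower than cold and heat for both walls. Cold against submergence called 6 of 6 members higher in cold (22.4% of all tested genes), from 0.61 for CESA3 (adjusted p = 0.031) to 1.26 for CESA6 (adjusted p = 0.000618) on the log2 scale. In TPM the CESA7 libraries overlapped, at 93.6 and 107 in cold and at 73.4 and 97.5 in submergence. Only the calls of CESA1 and CESA6 held under all 11 alternatives. Fewer members were called with a library left out or under library size only, and the share of all tested genes called there is not given here. Submergence against heat called 5 members lower (20.3% of all tested genes), from -0.65 for CESA1 (adjusted p = 0.0124) to -1.32 for CESA4 (adjusted p = 0.00336), and CESA3 was at -0.42 (adjusted p = 0.115). Fewer of these calls were left without heat Bio 1, a fit for which the share of all tested genes is not given either. Cold against heat called 0 members with edgeR, where 42.2% of all tested genes were called in either direction; 1 member, CESA1, had an unadjusted p under 0.05 and was the 1 member that DESeq2 called (log2 fold change 0.38, adjusted p = 0.0287).

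**Figure D3:**
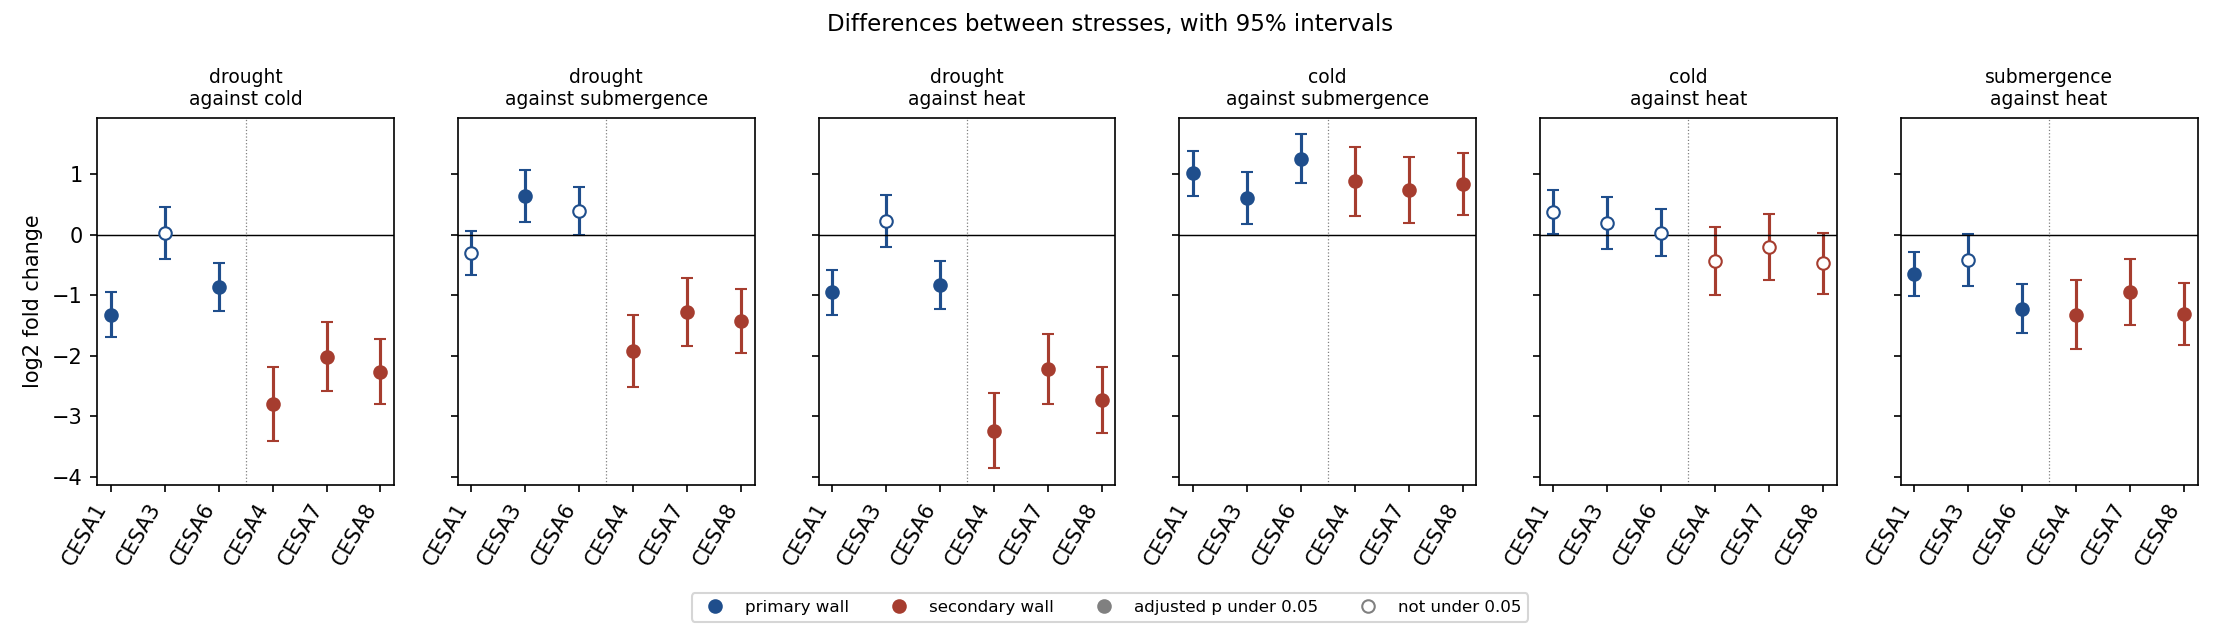
Log2 fold change of each member between pairs of stresses, with 95% intervals from the edgeR fit; filled points have an adjusted p under 0.05. Drought against submergence is the comparison in which called members point both ways, CESA3 at 0.64 and the secondary-wall genes between -1.92 and -1.28.

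By mean CPM with TMM scaling, the secondary-wall genes ran from heat through control and cold (cold above control for CESA7) to submergence and then drought. The first 3 conditions did not differ between neighbours, and the steps down to submergence and to drought were both called for each gene. For CESA1 the order was cold, control, heat, submergence and drought, with a called step only between heat and submergence. For CESA6 drought (149.1 CPM) stood above submergence (113.3 CPM), a step that was not called, and the called step was between heat and drought. For CESA3 drought was at the top and submergence at the bottom, and no neighbouring conditions differed. Some steps that were not called turned with the scale: in mean TPM heat was at the top for all 6 members, CESA6 had the order of CESA4 and CESA8, and CESA3 was at 281.4 TPM in drought against 314.1 TPM in heat.

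The balance of the walls was given by the share of the secondary-wall genes in the summed TPM of the 6 members. This share was 33.3% and 38.0% in the control libraries and 11.6% and 12.5% in the drought libraries. The cold libraries were at 30.7% and 32.2%, the submergence libraries at 29.1% and 35.2%, and the heat libraries at 44.3% and 37.7%. Only the drought libraries stood apart from all others. The summed level of the 6 members was 1026 and 1082 TPM in control, 457.6 and 584.4 TPM in drought, 727.4 and 787.7 TPM in submergence, 907.7 and 1020 TPM in cold, and 1475 and 1076 TPM in heat. In drought the secondary-wall sum was 52.9 and 73.1 TPM, against 341.2 and 410.8 TPM in control, and the primary-wall sum was 404.7 and 511.3 TPM, against 684.8 and 671.3 TPM.

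As a difference of mean log2(TPM + 0.1), the secondary-wall genes were below the primary-wall genes in control (-0.75 ± 0.21, SD, n = 2) and further below them in drought (-2.62 ± 0.12). The difference was -0.97 ± 0.04 in cold, -0.84 ± 0.30 in submergence and -0.43 ± 0.28 in heat. The shift from control to drought was -1.88, several times the spread between replicates. The shifts of -0.23 in cold, -0.09 in submergence and 0.32 in heat were close to or within that spread. The cold libraries (-0.998 and -0.947) lay just below the controls (-0.894 and -0.596), submergence (-1.05 and -0.63) overlapped with them, and heat (-0.23 and -0.63) did too. No p is given for this measure, since it is a score over the chosen genes.

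The proportions of the subunits within each wall were compared as ratios. The ratio of CESA4 to CESA8 in TPM was 0.81 and 0.84 in control and 0.53 and 0.49 in drought, the lowest values of the 10 libraries. The ratio of CESA7 to CESA8 was 0.84 and 0.86 in control, 1.00 and 1.04 in drought, and 0.73 and 0.70 in heat. CESA7 therefore stood higher relative to CESA8 in drought than in any other library, and lower in heat. Of the primary-wall genes, CESA1 was nearly level with CESA3 in control (ratios of 0.98 and 0.99) and at 0.48 and 0.40 of it in drought. The ratio of CESA6 to CESA1 moved otherwise: it was 0.41 and 0.41 in control, 0.44 and 0.45 in drought and 0.27 and 0.27 in submergence. In cold it was 0.29 and 0.36, with Bio 1 near the submergence values, and in heat 0.42 and 0.39. These ratios were not tested.

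**Figure D4:**
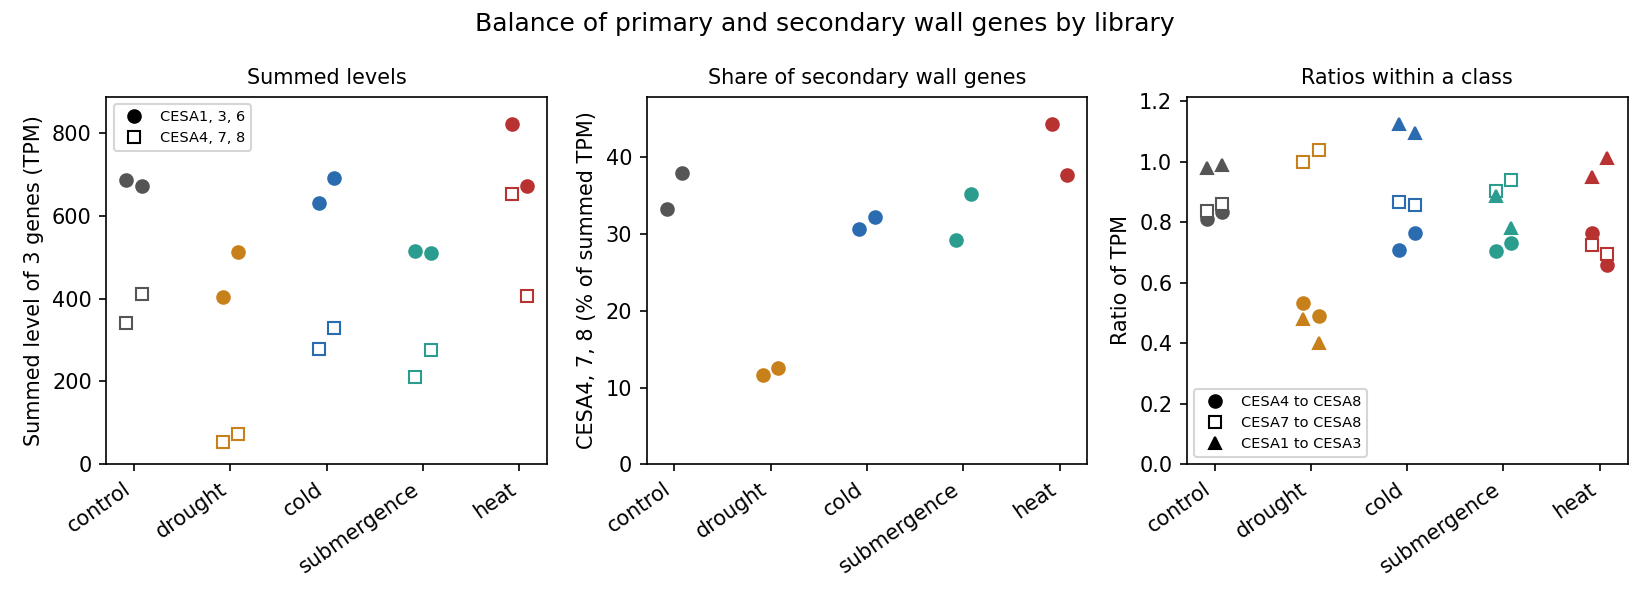
Left, summed TPM of the primary-wall (filled circles) and secondary-wall genes (open squares) in each library; middle, the secondary-wall share of the summed TPM in percent; right, ratios of TPM between members of a wall. Colours stand for the 5 groups and the 2 libraries of a group are drawn side by side; the secondary-wall share is 11.6% and 12.5% in drought and 29.1% to 44.3% in the other 8 libraries.

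The secondary-wall genes followed each other closely. Over the 10 libraries, Pearson's r of log2 CPM was 0.995 between CESA4 and CESA7, 0.994 between CESA4 and CESA8 and 0.994 between CESA7 and CESA8, and Spearman's rho was 0.964, 0.952 and 0.927. Of the 23493 other genes, the one most like CESA4 was CESA7, followed by CESA8, and the one most like CESA7 was CESA4, followed by CESA8. For CESA8 the order was Bradi3g55490.v3.1 (r = 0.997), CESA7 and CESA4. Bradi3g55490.v3.1 came next after them for CESA7 (r = 0.992), and Bradi4g43150.v3.1 did so for CESA4 (r = 0.993). The 10 libraries are 5 conditions in pairs and the drought libraries are far from the rest, so r was also computed over the 8 libraries without drought, a choice made after seeing the data. It was then 0.988, 0.982 and 0.974 for the same 3 pairs.

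The primary-wall genes were less alike over all libraries. Pearson's r was 0.87 between CESA1 and CESA6, 0.57 between CESA3 and CESA6 and 0.29 between CESA1 and CESA3. Without the drought libraries these values were 0.91, 0.94 and 0.98. The low values over 10 libraries thus rested on drought, where CESA3 did not follow the other members. CESA1 had r of 0.86 to 0.88 with the secondary-wall genes over all 10 libraries, near its r with CESA6, but 0.71 to 0.76 with them without drought, where it had 0.91 with CESA6. The other primary-wall genes were less apart from the secondary-wall genes without drought. CESA6 then had r of 0.873 to 0.890 with them, near its 0.91 with CESA1, and CESA3 had 0.785 to 0.845. The genes most like CESA1 were Bradi3g18306.v3.1 (r = 0.993), Bradi1g59810.v3.1 (0.984) and Bradi4g21740.v3.1 (0.984). For CESA6 they were Bradi2g10420.v3.1 (0.983), Bradi5g13212.v3.1 (0.977) and Bradi1g64770.v3.1 (0.975), and for CESA3 Bradi2g38340.v3.1 (0.944), Bradi1g34087.v3.1 (0.938) and Bradi2g20360.v3.1 (0.925).

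Another gene annotated with the cellulose synthase domain, Bradi1g25107.v3.1, was the 1 such gene in a shortened copy of the paper's supplementary annotation. That copy is not a list of the family, so other genes with the domain can be missing from it. The source gives Bradi1g25107.v3.1 no name, and whether this gene is a CESA gene is not known here. It was at 16.3 and 18.6 TPM in control, 0.59 and 1.18 TPM in drought, 10.6 and 11.0 TPM in cold, 16.8 and 11.0 TPM in submergence and 4.99 and 5.66 TPM in heat. Its log2 fold change was -4.04 in drought (SE 0.36, adjusted p = 9.97e-06) and -1.88 in heat (SE 0.29, adjusted p = 0.00346), and it was not called in cold (-0.43, adjusted p = 0.307) or submergence (-0.57, adjusted p = 0.142). It therefore was lower in drought, like the 5 called members, and was also lower after heat, where none of the 6 members was called.

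The same transcripts were looked up in the Brachypodium table of predicted miRNA target sites. The authors predicted the sites with psRNATarget and TargetFinder and then looked for reads at them with PARE (Parallel Analysis of RNA Ends). In PARE, reads start at the cut end of RNA fragments that lack a cap, so miRNA cleavage shows as reads starting at the predicted position. The table held 4 predicted sites on 3 members, CESA1, CESA6 and CESA7, and 0 on CESA3, CESA4 and CESA8. The miRNAs of these sites are shown, with the seed (bases 2 to 8) in capitals, because they are the miRNAs the table pairs with a CESA transcript.
miR166g-3p: uGUGGUGAucucggaccaggc
miR7753-5p: aUGUCUUCuuccuugcucauc
miR5185a-3p: uUUGAGAAuugaacuagaagc
miR5185m-3p: uUUGAAAAuugaacuagaagc
miR5185l-3p: uUUGGAGAuugacuuagaagc

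All 4 sites had an abundance of 1 TP10M, the table's library-scaled abundance unit, as had 83.0% of the 9788 sites at which the table lists any read, and were at Level 1 of the prominence scale. On CESA1 the sites were at transcript position 539, paired with miR7753-5p (psRNATarget expectation 3), and at position 1187, paired with miR5185a-3p (expectation 3.5), the identical miR5185b-3p to miR5185k-3p, miR5185l-3p (4.5) and miR5185m-3p (5). On CESA6 the site was at position 1917 and on CESA7 at position 1906, both paired with miR166g-3p (expectations of 5 and 4.5). Only the miR7753-5p pair also had a TargetFinder score (2.5), and the other pairs had none. Of the 21 bases of miR166g-3p, the last 11 equal the first 11 of miR166a-3p, so its seed is not that of miR166a-3p. The reads at these sites made up 0.03% to 0.08% of the PARE abundance of their transcripts, and the library named for each was a submergence library. For the CESA1 and CESA6 sites it was BDI508, the deepest Brachypodium PARE library by the read totals of the paper, and for CESA7 it was BDI493. Whether depth bears on which library is named was not tested. At a minimum of 2 TP10M, 0 sites were left, and with 1 value per site no comparison between conditions was possible.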

How the data were processed

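RNA-seq reads had been aligned by the authors with STAR (2.5.3a per the labels) to the v3.1 Brachypodium genome, and the authors deposited RSEM (1.2.31) expected counts and TPM for each gene. Expected counts, of which 13.3% to 15.6% per library were not whole, were rounded here, genes were kept by filterByExpr, and libraries were scaled by TMM (factors 0.825 to 1.22). edgeR 4.0.16 in R 4.3.3 was fitted to all 10 libraries with group as the only term, so that groups with 2 libraries share an estimate of the spread. The SE was obtained by dividing the absolute fold change (log2) by the root of the F statistic. For log2 CPM the prior count was 2. Alternatives were DESeq2 1.42.0, other scalings, no count filter, only the groups compared, a replicate block, each library left out and a stricter fold threshold. The fit was also run on simulated counts drawn from its own means and dispersions, with a limited set of genes changed in drought only. That run cannot show how the scaling behaves where many genes change. Replicates differed by more than sampling noise.

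For PARE, the authors mapped reads with Bowtie (0.12.7 per the labels) and deposited, for each predicted site, the expectation and TargetFinder score, a whole-number abundance in TP10M (a score here) and the fraction of the PARE abundance of the transcript. How libraries were combined is not given in the sources used here. A library is named for each member site and the paper lists its depth, but whether other libraries enter the value is unknown.

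The members and lists were chosen with earlier results of these data known, although the rule for the members names gene IDs only. All 6 members were named. The list of wall genes needed gene names, 0 members matched the reference table by ID, and it was therefore replaced by genes annotated with the cellulose synthase domain. Likeness names the 3 genes of highest r. The time of day at which controls were sampled is not given in the sources used here.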

Additional observations from a re-analysis of the deposited data

How the results depend on the processing

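With 2 libraries in a group, the 95% intervals of single members were wide. In drought against control, cold and heat the 5 calls were kept under all 11 alternatives run for each gene; calls in comparisons with submergence were lost most often. Where a value changed below, the cause was not tested.

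For the counts of called members in this paragraph, the share of all tested genes called under the same setting is not given here. A change particular to these members therefore cannot be told apart from a general change in calls. Where a change of at least 1 on the log2 scale was also required, 3 members were called in drought against control. This rule gave 2 in submergence against control, 3 in drought against heat, 2 in cold against submergence and 3 in submergence against heat. Under library size only, 3 were called in submergence against control, 2 in cold against submergence and 2 in cold against heat (CESA4 and CESA8); cold against heat gave 1 under upper quartile scaling (CESA8) and 1 with DESeq2 (CESA1). Leaving out 1 library gave 1 to 3 calls in submergence against control, 2 to 4 in cold against submergence and 3 to 5 in submergence against heat.

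Values that changed sign were not called in the fit reported or in the alternative. Under upper quartile scaling, the log2 fold changes were -0.046 (CESA3) in drought against control, -0.151 (CESA6) and -0.160 (CESA7) in cold, 0.010 (CESA1), 0.019 (CESA3) and 0.012 (CESA6) in heat, -0.052 (CESA3) in drought against cold, -0.065 (CESA3) in drought against heat, and -0.013 (CESA3) and -0.164 (CESA6) in cold against heat. Under library size only they were -0.079 (CESA3) in drought, -0.099 (CESA3), -0.258 (CESA6) and -0.264 (CESA7) in cold, 0.139 (CESA1), 0.149 (CESA3) and 0.142 (CESA6) in heat, -0.088 (CESA6) in drought against submergence, -0.228 (CESA3) in drought against heat, and -0.065 (CESA1), -0.248 (CESA3) and -0.399 (CESA6) in cold against heat. With only the cold and control groups in the fit, CESA8 was at 0.002.

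With each library left out, values ranged from -0.054 to 0.432 (CESA3, drought). In cold they ranged from -0.191 to 0.199 (CESA6), -0.335 to 0.006 (CESA4), -0.126 to 0.183 (CESA7) and -0.125 to 0.141 (CESA8). In heat against control the ranges were -0.080 to 0.033 (CESA1), -0.121 to 0.086 (CESA3), -0.130 to 0.080 (CESA6), -0.122 to 0.574 (CESA4) and -0.088 to 0.457 (CESA7). In drought against cold the range was -0.231 to 0.256 (CESA3). In drought against heat the range was -0.040 to 0.447 (CESA3). In cold against heat the ranges were -0.169 to 0.221 (CESA6) and -0.447 to 0.097 (CESA7).

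For the secondary minus primary wall level, the drought shift was -2.095 without CESA1, -1.512 without CESA3 and -1.609 without CESA4. The submergence shift was 0.082 without CESA3 and ranged from -0.306 to 0.119 with a library left out. At 2 TP10M or more, 0 PARE sites were left.

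Same-numbered libraries did not deviate together (correlations of -0.174 to 0.137 between groups), so the numbers were not taken to pair the samples; with the replicate number as a block the counts of called members against control were 5 (drought), 5 (submergence), 0 (cold) and 0 (heat), the same as without it.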
